A study of Mus musculus with 6 samples.

Results

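Transcripts of 10 genes known from pericytes and vascular smooth muscle cells, together called mural cells, were measured in whole choroid plexus. The genes were Myl9, Acta2, Tagln, Cnn1, Rgs5, Pdgfrb, Cspg4, Des, Notch3 and Kcnj8. They were chosen by name as genes of these cells, out of 18193 genes that the array named, and were read by 19 probe sets of 34945 with a single gene symbol. The arrays held total RNA of the whole lateral ventricle choroid plexus from male CD1 mice, an outbred stock, with 3 mice aged 18 months and 3 aged 2 months. Both plexuses of a mouse went on 1 array, and the labels name no genotype or treatment for either age. All values are log2 of the deposited intensities, and differences are 18 months minus 2 months.

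Mural cells wrap the endothelial tube of blood vessels. Smooth muscle cells surround arteries and arterioles and contract through actin and myosin filaments, whereas pericytes sit on capillaries and are drawn to the vessel by PDGF-B, which endothelial cells release and the receptor Pdgfrb binds. The receptor Notch3, on mural cells, is engaged by Jagged ligands on neighbouring cells and supports the smooth muscle state. In the choroid plexus the capillaries are fenestrated and lie in a stroma beneath the epithelium that makes cerebrospinal fluid.

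None of the 10 genes passed the threshold between the ages. Of the 10, 8 were bright enough to test, and by limma (Benjamini-Hochberg over 12681 genes) 0 of these had an adjusted p under 0.05. Over all genes tested 0% were called higher and 0% lower. Myl9 was lower at 18 months in every mouse and had the smallest p of the group. The largest difference, that of Notch3, was carried by 1 mouse and 1 of its 2 probe sets. Tagln and Pdgfrb differed by -0.044 and 0.043 on the log2 scale, with intervals on both sides of 0.

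The label was first set against the background of the array. A gene was tested if its mean over the 6 arrays reached 4.92, the 40th percentile of probe sets, and the brightest of 27 probe sets against bacterial transcripts averaged 4.51. Myl9, Acta2, Tagln, Rgs5, Pdgfrb, Cspg4, Des and Notch3 lay above both. Cnn1, the smooth muscle calponin, and Kcnj8, the pore of the ATP-sensitive potassium channel of pericytes, had means of 4.13 and 4.11, under the brightest bacterial control. Of 29 further genes of the smooth muscle contractile apparatus, 23 passed the filter and 26 lay above the brightest bacterial control. That list was not restricted to genes particular to smooth muscle, and its means ran up to 11.65. Smtn, Actg2 and Kcnmb1 lay under that control, and Synpo2, Aoc3 and Myh11 between it and the filter. Myh11, the smooth muscle myosin heavy chain, had a mean of 4.87, between the bacterial control and the filter. Myocd, the cofactor that switches on the smooth muscle program, had 3.51, and Abcc9, the partner subunit of Kcnj8, had 4.14, both under that control. Myh11, Myocd and Abcc9 were chosen after their values were seen. Of a list of 21 further pericyte genes with a probe set, 11 passed the filter and 9 did not exceed the brightest bacterial control. Array medians lay between 5.56 and 5.65. Over all genes tested, principal component 1 held 28.5% of the variance, from 2-month replicate 2 at one extreme to 18-month replicate 3 at the other.

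**Figure D1:**
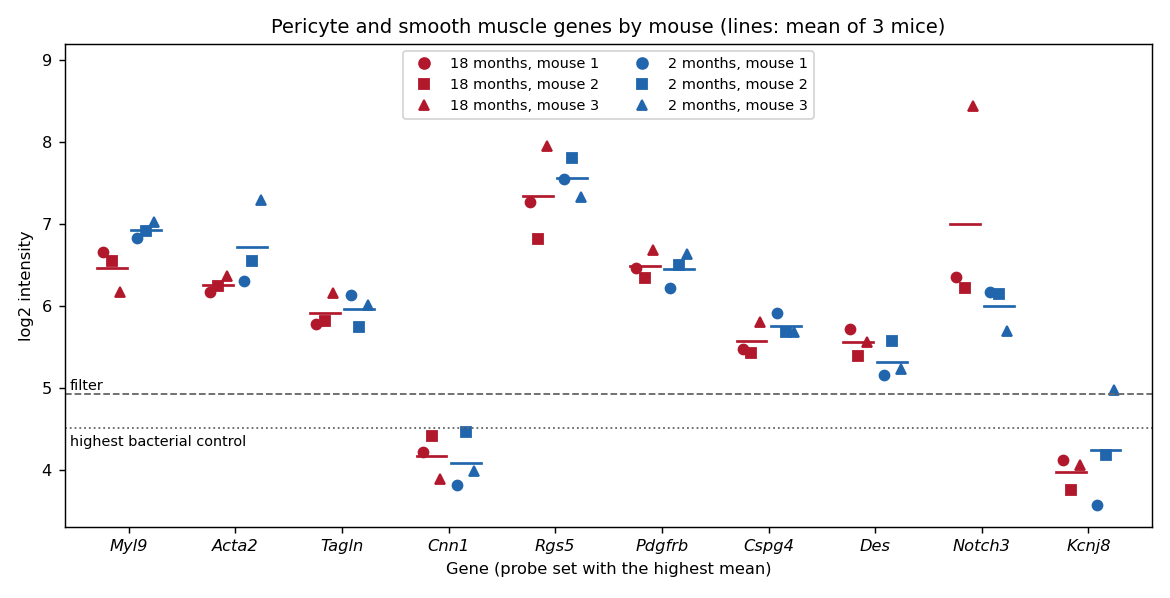
Log2 intensity of the 10 genes (x axis) in each mouse, for the probe set with the highest mean; red marks are mice aged 18 months, blue marks mice aged 2 months, short lines the mean of 3 mice, and horizontal lines the filter (4.92) and the brightest bacterial control (4.51). Myl9 is lower in all 3 mice at 18 months, 1 mouse at 18 months stands apart for Notch3, and Cnn1 and Kcnj8 lie at background.

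The contractile genes came first. Myl9 encodes the regulatory light chain of smooth muscle myosin, whose phosphorylation starts contraction. Its log2 intensities were 6.66, 6.55 and 6.16 at 18 months against 6.83, 6.92 and 7.03 at 2 months. The lowest mouse at 2 months lay 0.17 above the highest at 18 months, so that the ages did not overlap. The difference was -0.47 (SE 0.19, 95% confidence interval -0.93 to -0.0026), or 1.38-fold lower at 18 months, with a limma p of 0.0491 and an adjusted p of 0.708. Fewer mural cells in a sample and less of a transcript in each cell cannot be told apart in these whole-tissue samples, here or for any gene that follows. Estimated over 27022 probe sets in place of genes, the spread gave an interval of -0.95 to 0.016, which includes 0. At an unadjusted p under 0.05, Myl9 alone of the 8 members was counted, and 4.02% of all genes tested were higher and 3.03% lower. Leaving out each mouse in turn gave differences for Myl9 from -0.57 to -0.32, the smallest without 18-month replicate 3.

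Acta2, smooth muscle alpha-actin, makes the thin filament on which that myosin pulls. It had 6.17, 6.24 and 6.36 at 18 months against 6.30, 6.55 and 7.30 at 2 months. The high value at 2 months belonged to replicate 3, and the lowest mouse at 2 months lay within the range of the mice at 18 months. The difference was -0.46 (SE 0.28, interval -1.12 to 0.21, limma adjusted p = 0.791), close to that of Myl9 in size. Without 2-month replicate 3 it was -0.17. The probe set behind these values can share probes with other actin genes, as its suffix _s_at marks, and the remaining 2 probe sets of Acta2 lay under the brightest bacterial control.

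Tagln, which encodes the actin-binding protein transgelin, had 5.78, 5.81 and 6.16 at 18 months against 6.14, 5.74 and 6.01 at 2 months. The mice of both ages were interspersed. The difference was -0.044 (SE 0.20, interval -0.52 to 0.43), which leaves room for a change in either direction. Des encodes desmin, the intermediate filament of muscle cells and many pericytes. It had 5.72, 5.39 and 5.56 at 18 months against 5.15, 5.57 and 5.23 at 2 months, a difference of 0.24 (SE 0.19, interval -0.22 to 0.70), with overlapping ages. That difference was 0.16 without 18-month replicate 1, 0.16 without 2-month replicate 1 and 0.37 without 2-month replicate 2. Its second probe set lay at a mean of 2.32, at background. Cnn1 had 4.21, 4.41 and 3.89 at 18 months against 3.81, 4.46 and 3.98 at 2 months, values from which no difference could be read.

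Many contractile genes, Myl9, Acta2, Tagln and Cnn1 among them, are textbook targets of the serum response factor SRF, which binds the CArG box. The box was searched for in the promoter windows of a RefSeq table (build GRCm38.p6), each around a transcript start. The table held windows for 8 of the 10 genes, Pdgfrb and Tagln not being among them. A full CArG box was found in 1 of these, that of Myl9, and in 1.63% of all 32851 windows. A box with 1 G or C in its A/T core was found for Myl9 and Acta2, and in 8.50% of all windows. The stretches that hold the matches in these 2 genes, the members with the largest values toward lower levels, are given 5′ to 3′ on the gene's strand, with the matches in capitals.
Myl9, chr2:156775279-156775398, plus strand: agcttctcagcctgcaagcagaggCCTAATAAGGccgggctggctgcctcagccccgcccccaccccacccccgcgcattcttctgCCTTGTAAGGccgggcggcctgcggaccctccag
Acta2, chr19:34255374-34255481, minus strand: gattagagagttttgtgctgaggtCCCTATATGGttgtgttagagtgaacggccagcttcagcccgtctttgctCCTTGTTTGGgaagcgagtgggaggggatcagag
In the Myl9 window the full box starts at base 90 and the box with 1 mismatch at base 152, counted from the 5′ end of the 300-base window. In the Acta2 window the boxes with 1 mismatch start at bases 167 and 217. Neither strand of any member's window held GTGGGAA, the core of the site bound by the Notch effector RBPJ, which 6.38% of all windows held. CATTCC, bound by TEAD factors, was found on either strand in 1 member's window, that of Acta2, and in 14.7% of all windows. These matches describe the letters only, and no binding was measured here.

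Srf itself had 8.87, 9.16 and 8.77 at 18 months against 9.22, 8.72 and 9.55 at 2 months, a difference of -0.23 (SE 0.26, limma adjusted p = 0.884), with overlapping ages. Over the list of regulators of the smooth muscle program, 0 genes were called (11 tested, 5 above 0 and 6 below, median log2 difference -0.023). The median of all 12681 genes was 0.0032. The smallest p on this list belonged to Foxc1, a forkhead factor needed for mural cells of brain vessels, whose values were 5.29, 5.52 and 6.52 at 18 months against 6.55, 7.06 and 6.44 at 2 months. Its difference was -0.91 (SE 0.36, limma adjusted p = 0.706), and the ages overlapped through 18-month replicate 3. Its second probe set, below the filter, gave -0.19, and averaging the pair gave -0.55. Tead1, a factor that binds muscle gene promoters, differed by -0.37 (SE 0.17) with separate ages, but its second probe set gave 0.035 and the average was -0.17. Klf4, which represses the smooth muscle program, differed by 0.36 (SE 0.19) the other way, also with separate ages. Its second probe set, under the brightest bacterial control, gave 0.68, and averaging the pair gave 0.52.

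The other listed contractile genes that were tested pointed both ways. The list was not restricted to genes particular to smooth muscle, and Myh11 was among those under the filter. Of the listed genes other than the members, 0 were called (23 tested, 15 above 0 and 8 below, median log2 difference 0.12). Without overlap of the ages, 1 gene lay higher and 1 lower at 18 months, against 7.06% and 6.25% of all genes. The lower one was Pln, phospholamban, which restrains the calcium pump of the sarcoplasmic reticulum. It had 7.39, 7.57 and 6.44 at 18 months against 8.72, 8.64 and 8.29 at 2 months, a difference of -1.42 (SE 0.33, limma adjusted p = 0.494) or 2.67-fold lower at 18 months. Its 2 other probe sets gave -0.40 and 0.077, and averaging the 3 gave -0.58. The higher one was Tpm2, a tropomyosin that lies along the thin filament, which averaged 8.49 ± 0.45 at 18 months and 7.61 ± 0.39 at 2 months (SD, n = 3 each). The ages were separate. It differed by 0.88 (SE 0.31, limma adjusted p = 0.678), and its 2 other probe sets above the filter gave 1.08 and 0.50. Mylk, the kinase that phosphorylates the light chain encoded by Myl9, had 6.46, 5.58 and 6.67 at 18 months against 6.65, 7.07 and 7.49 at 2 months. Its difference was -0.83 (SE 0.35, limma adjusted p = 0.711), with overlapping ages, and the second probe set above the filter gave -0.13. Without 18-month replicate 2 it was -0.51.

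Among receptors, Pdgfrb had 6.46, 6.34 and 6.68 at 18 months against 6.22, 6.50 and 6.63 at 2 months by its brighter probe set. All 6 mice lay between 6.22 and 6.68, and the difference was 0.043 (SE 0.19, interval -0.41 to 0.50). Its second probe set, which also passed the filter, had 6.68, 4.82 and 6.15 at 18 months against 5.56, 6.99 and 5.04 at 2 months. These values ranged widely within each age (SD 0.96 and 1.01, n = 3 each) and did not follow the first probe set. The difference was small there too, at 0.022 (SE 0.64), with an interval of -1.51 to 1.56 that leaves it poorly measured.

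Of the other PDGF pathway genes 0 were called (12 tested, 5 above 0 and 7 below, median log2 difference -0.038). The ligand gene Pdgfb had 6.27, 6.15 and 6.37 at 18 months against 6.69, 6.68 and 6.30 at 2 months, a difference of -0.29 (SE 0.18), and its second probe set gave 0.29, the opposite sign, so that their average was -0.0031. Pdgfra, the receptor of fibroblasts and oligodendrocyte precursors rather than of mural cells, had 9.64, 9.34 and 9.56 at 18 months against 7.88, 7.61 and 7.21 at 2 months. Its ages lay wide apart, and it had the smallest p of the list, with a difference of 1.95 (SE 0.22, limma adjusted p = 0.118). Its 2 other probe sets gave 1.29 and 0.035, and averaging the 3 gave 1.09. Markers of those cells did not move with it as a set. Of 15 fibroblast markers tested, Pdgfra among them, 7 were above 0 and 8 below. Without overlap, 1 lay higher and 3 lower, against 7.06% and 6.25% of all genes. Of 8 precursor markers, Pdgfra again among them, 5 were above 0 and 3 below. The adaptor gene Grb2, which carries the signal of the receptors onward, differed by 0.31 (SE 0.19) and by -0.13 in its second probe set, 0.089 on average.

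Cspg4 encodes the NG2 proteoglycan, found on pericytes and on oligodendrocyte precursors. Its brighter probe set had 5.47, 5.42 and 5.80 at 18 months against 5.91, 5.68 and 5.68 at 2 months, a difference of -0.19 (SE 0.18, interval -0.63 to 0.25). The ages overlapped, 18-month replicate 3 lying above 2 of the mice at 2 months. The difference moved to -0.11 without 2-month replicate 1, -0.12 without 18-month replicate 2 and -0.31 without 18-month replicate 3. The second probe set had 5.53, 4.74 and 4.81 at 18 months against 4.70, 5.09 and 6.09 at 2 months, with 2-month replicate 3 far above the other 2 mice of its age. Markers of oligodendrocyte precursors, the other cells that carry NG2, had a mean level on 2-month replicate 3 of 0.032 relative to each gene's own mean. Their range over the arrays was -0.51 to 0.69. 8 of 11 passed the filter, and their part in the values of Cspg4 was not tested.

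Notch3 had 6.36, 6.22 and 8.44 at 18 months against 6.17, 6.14 and 5.69 at 2 months by its brighter probe set. A single animal, 18-month replicate 3, stood far above the other 5, which lay between 5.69 and 6.36. The ages were separate, but by only 0.046. The difference was 1.00 (SE 0.59, interval -0.41 to 2.42, limma adjusted p = 0.784), and without that mouse it was 0.29. Averaging both probe sets gave 0.57. The spread within ages was larger than that of 94.9% of all genes tested. The second probe set gave 5.82, 4.96 and 5.07 at 18 months against 5.58, 5.17 and 4.71 at 2 months. There the same mouse was not high, and the difference was 0.13 (SE 0.33). On the array of 18-month replicate 3, neuron markers stood at 0.87 and oligodendrocyte precursor markers at 0.69 relative to each gene's mean, the highest of the 6 arrays for both lists. Their part in the value of Notch3 was not tested. A fit with the neuron level as covariate gave 1.00. The neuron level differed by only 0.012 between the ages, so that fit could hardly move an age difference.

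**Figure D2:**
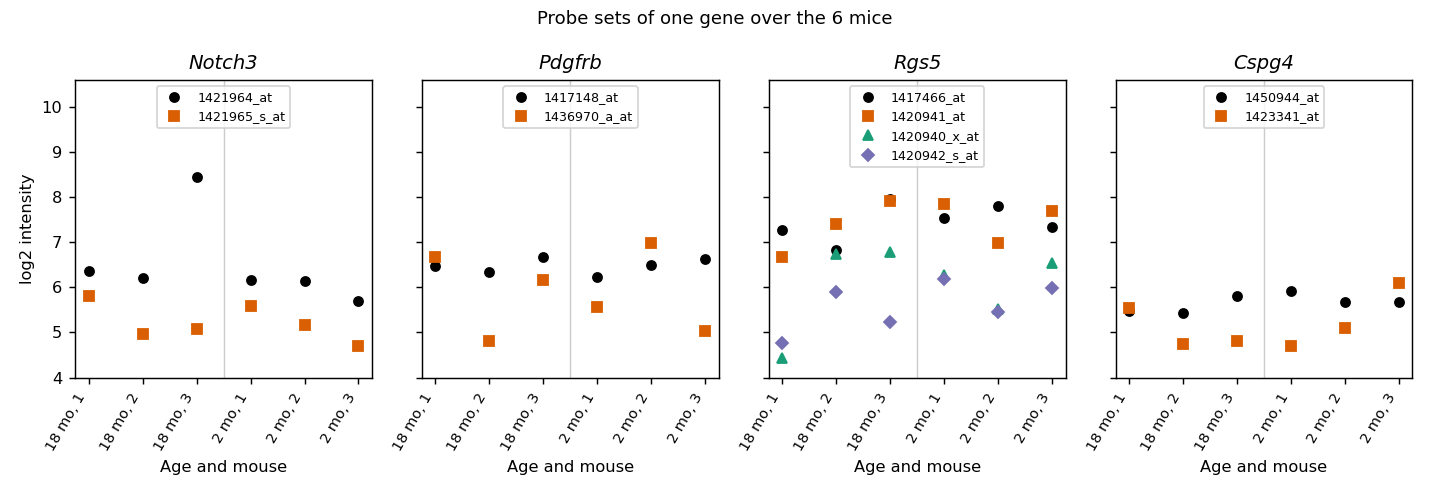
Log2 intensity (y axis) of each probe set above the filter for Notch3, Pdgfrb, Rgs5 and Cspg4 in the 6 mice (x axis, age in months and replicate number; the grey line separates the ages). The probe sets of a gene did not follow one another from mouse to mouse except for some of Rgs5, and the high value of Notch3 in 18-month replicate 3 appeared in 1 of its 2 probe sets.

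Around Notch3, genes of the pathway pointed both ways, and 0 were called (22 tested, 9 above 0 and 13 below, median log2 difference -0.088). Without overlap, 3 genes lay higher and 2 lower at 18 months, against 7.06% and 6.25% of all genes. Jag1, the ligand through which endothelium engages Notch3, had 7.35, 6.75 and 7.43 at 18 months against 6.54, 6.07 and 6.50 at 2 months. It differed by 0.80 (SE 0.25, limma adjusted p = 0.636), or 1.74-fold, but its 2 dimmer probe sets gave -0.16 and -0.087, and averaging the 3 gave 0.19. Hes1, a repressor gene that Notch signalling switches on, had 6.66, 6.72 and 6.90 at 18 months against 7.05, 7.22 and 7.49 at 2 months, and differed by -0.49 (SE 0.19, limma adjusted p = 0.682). Maml1, a coactivator of the Notch transcription complex, differed by 0.58 (SE 0.24), with probe sets from -0.014 to 0.72, and 0.39 without 18-month replicate 3.

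Rgs5, a regulator of G-protein signalling that marks pericytes, was read by 4 probe sets, all above the filter. The brightest had 7.27, 6.82 and 7.95 at 18 months against 7.55, 7.81 and 7.34 at 2 months. Its ages overlapped and the difference was -0.22 (SE 0.31, interval -0.97 to 0.54). The next gave 6.67, 7.41 and 7.92 at 18 months against 7.85, 6.98 and 7.69 at 2 months. All 4 differences were below 0, from -0.57 to -0.12, and in none were the ages separate. The most negative, that of the probe set with the suffix _s_at, had 4.77, 5.90 and 5.24 at 18 months against 6.18, 5.46 and 5.99 at 2 months and an SE of 0.34. The widest spread was that of the _x_at probe set, whose probes may bind other transcripts. It had 4.44, 6.75 and 6.79 at 18 months against 6.28, 5.52 and 6.55 at 2 months, with 18-month replicate 1 far below the rest. The difference of the brightest probe set was 0.046 without 18-month replicate 2, -0.093 without 2-month replicate 2, -0.33 without 2-month replicate 3 and -0.52 without 18-month replicate 3.

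Kcnj8, the channel subunit, had 4.11, 3.75 and 4.05 at 18 months against 3.57, 4.18 and 4.98 at 2 months. Only 2-month replicate 3 lay above the brightest bacterial control, so no difference is read from it. Its partner Abcc9 had 4.62, 2.72 and 4.80 at 18 months against 6.30, 3.60 and 2.80 at 2 months, a wide spread around background within each age. Of the further pericyte genes 0 were called (11 tested, 4 above 0 and 7 below, median log2 difference -0.11). The smallest p belonged to Casq2, a calcium store protein of muscle, whose values were 4.62, 4.21 and 4.59 at 18 months against 4.79, 5.72 and 5.79 at 2 months. Its mean at 18 months, 4.47, lay under the brightest bacterial control, and it passed the filter only through the mice at 2 months, whose mean was 5.43, so no difference is read from it. Zic1, a factor shared with meningeal cells, differed by -0.35 (SE 0.21), which was -0.18 without 18-month replicate 1. Its second probe set, above the filter, gave -0.46 (SE 0.19), and averaging the pair gave -0.40. Ifitm1, an interferon-induced membrane protein gene, differed by 1.35 (SE 0.86), which was 0.42 without 18-month replicate 2, 0.88 without 2-month replicate 2 and 2.08 without 18-month replicate 3.

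**Figure D3:**
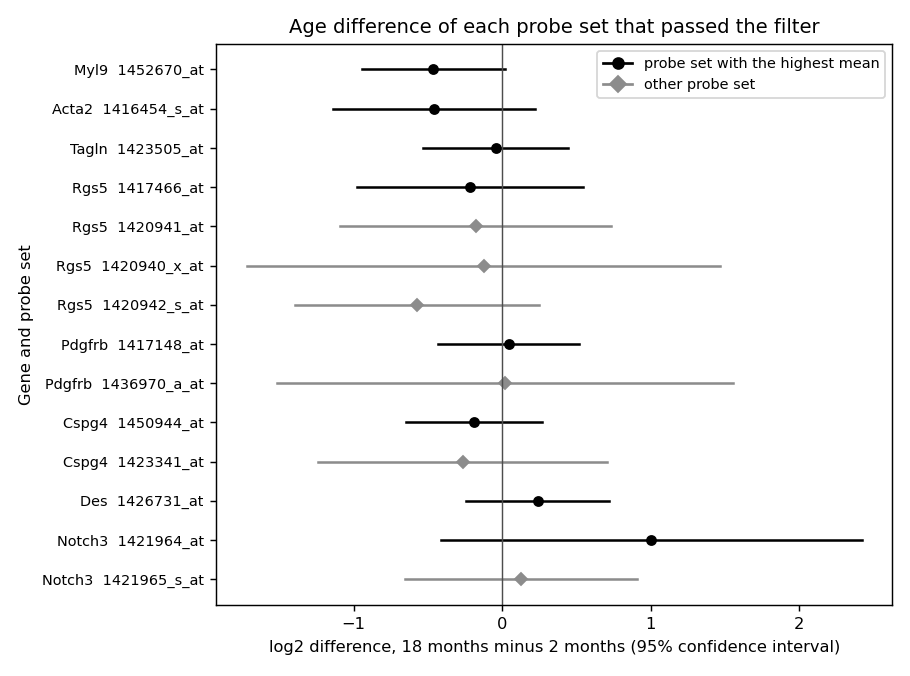
Log2 difference, 18 months minus 2 months (x axis), with its 95% confidence interval from limma for each of the 14 probe sets of the 10 genes that passed the filter (y axis); black circles are the brightest probe set of a gene and grey diamonds the others. All 14 intervals include 0, that of Myl9 by the smallest margin, and the 4 probe sets of Rgs5 lie below 0.

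Genes through which vessels are made to constrict or relax showed 0 calls (13 tested, 5 above 0 and 8 below, median log2 difference -0.069). Gucy1a1, a subunit of the nitric oxide receptor of smooth muscle and pericytes, had 7.34, 7.67 and 7.46 at 18 months against 6.88, 6.62 and 6.66 at 2 months. Every mouse at 18 months lay above every mouse at 2 months, by at least 0.46. The difference was 0.77 (SE 0.18, limma adjusted p = 0.491), or 1.70-fold, and its 2 other probe sets gave 0.72 and 0.27. Nos3, the endothelial enzyme that makes nitric oxide, had 6.92, 6.18 and 5.84 at 18 months against 7.33, 6.68 and 6.81 at 2 months, a difference of -0.63 (SE 0.33) with overlapping ages, and -0.39 without 18-month replicate 3. Edn3, an endothelin, differed by -0.92 (SE 0.30, limma adjusted p = 0.651), and its 3 other probe sets gave values from -0.60 to -0.28, -0.53 with all averaged.

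The 10 genes had 14 probe sets above the filter, which were also fitted one by one. By limma 0 of them passed the threshold, where 0% of 27022 probe sets were called higher and 0.0037% lower. At an unadjusted p under 0.05, 0 were counted, against 6.47% of all probe sets. The ages did not overlap for 2, 1 each of Myl9 and Notch3, against 12.6% of all. Probe sets of the same gene correlated over the 6 arrays with r of 0.22 for Pdgfrb, -0.23 for Cspg4 and 0.0069 for Notch3, and from -0.24 to 0.88 among the 4 of Rgs5.

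**Figure D4:**
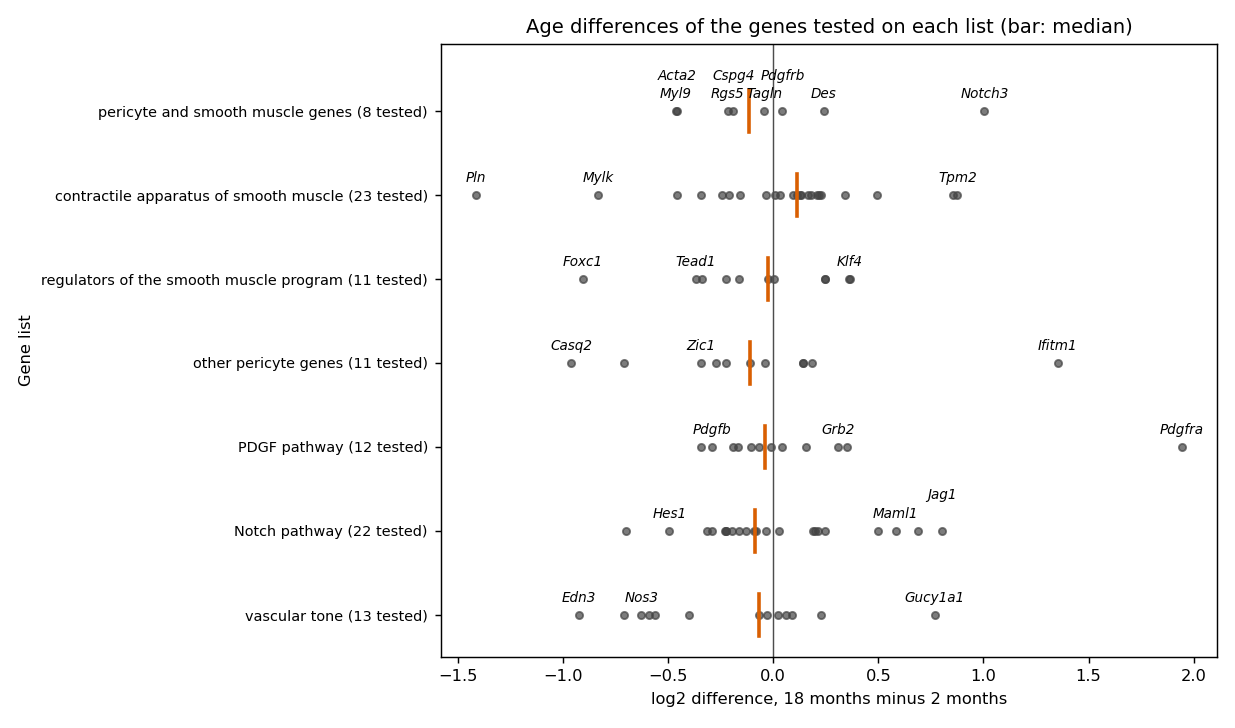
Log2 difference, 18 months minus 2 months (x axis), of every gene tested on each list (rows; points are genes, orange bars the list median); the labelled genes are all tested members and, on the other lists, the 3 genes with the smallest p. List medians lie between -0.12 and 0.12, and 0 genes passed the threshold.

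Over the 8 members tested, 3 differences were above 0 and 5 below, with a median of -0.12, against 0.0032 over all genes. The ages did not overlap for 2 of the 8, Notch3 upward and Myl9 downward, and for 13.3% of all genes. Without 18-month replicate 2 the median was 0.027, so that its sign rested on that mouse. The correlation of a member with the mean of the other 7 was lowest for Myl9 (-0.57) and Acta2 (-0.064). It was highest for Rgs5 (0.77) and Pdgfrb (0.66). These values are a description over 6 arrays that differed in the levels of markers of other cells. 18-month replicate 3 held the highest of the 6 values for 4 of the 8, Tagln, Rgs5, Pdgfrb and Notch3, where it did so for 17.3% of all genes. That array was also the highest of the 6 for neuron, oligodendrocyte, oligodendrocyte precursor, fibroblast and macrophage markers, fibroblast markers standing at 0.43 there and at -0.24 on the lowest array. Their part in the values of these 4 members was not tested. The genes whose profile was most like the mean of the members were Tmx1 (r = 0.995), Med14 (0.989), Rnft2 (0.987), Nup155 (0.981) and Bex1 (0.981). Each had its highest value in 18-month replicate 3 and its lowest in 18-month replicate 2. This follows from how they were chosen, as the members' mean had its own extremes there, 0.31 and -0.23. Much of that 0.31 came from the single high value of Notch3, 8.44 there against a mean of 6.50 over the 6 arrays. The second probe set of Notch3 did not show it. That value also entered the mean with which the other members were correlated. Bex1 had 6.41, 5.30 and 10.49 at 18 months against 7.23, 7.13 and 8.05 at 2 months.

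The plexus samples also held other cells, whose markers were measured by the same arrays. The epithelial gene Ttr had 14.30 ± 0.054 at 18 months and 14.47 ± 0.013 at 2 months (SD, n = 3 each), lower at 18 months in every mouse (limma adjusted p = 0.849). Epithelial markers as a list moved between arrays by -0.065 to 0.059 around each gene's mean, an average of genes that pointed both ways. Of 11 tested, 3 were above 0 and 8 below. Without overlap, 1 lay higher and 3 lower at 18 months, against 7.06% and 6.25% of all genes. Endothelial markers, of the cells that mural cells cover, had a median difference of 0.18 over 12 genes, with 0 called. Pecam1, their first marker, had 5.19, 6.24 and 5.22 at 18 months against 5.22, 6.26 and 5.13 at 2 months, the second mouse of each age standing above the others. Fibroblast markers, which include genes that mural cells also express, had a median of -0.20 over 15 genes, and Col1a1 had 6.63, 6.39 and 7.60 at 18 months against 6.61, 7.17 and 7.72 at 2 months. Neuron markers ranged over the arrays from -0.88 to 0.87 and oligodendrocyte markers from -1.36 to 1.02, with Snap25 between 10.23 and 12.30 and Mbp between 10.01 and 11.85. Oligodendrocyte markers had a median difference of 0.23 over 9 genes, 8 of them above 0 and 0 called, and Mbp differed by 0.018. Macrophage markers had a median of 0.59 over 11 genes, 10 of them above 0 and 0 called. Csf1r, their first marker, differed by 0.59 (SE 0.41). For oligodendrocyte precursors Olig1 lay between 4.10 and 7.57. Of 12 skeletal muscle markers 5 passed the filter, and Acta1 did not (mean 4.36). With the level of neuron markers as a covariate, Myl9 differed by -0.46 and Acta2 by -0.46. That level differed by only 0.012 between the ages, so the fit could hardly move these differences. The levels of the other lists were not used as covariates.

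**Figure D5:**
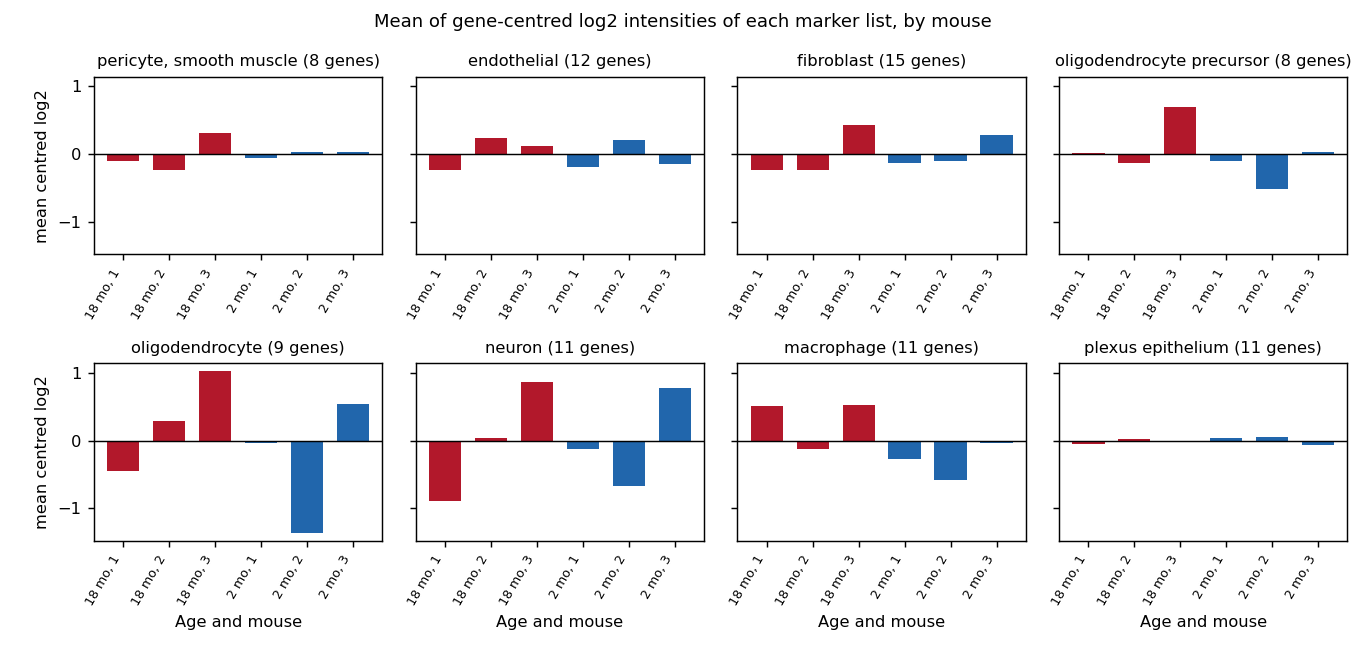
Mean over a list of log2 intensity after subtracting each gene's own mean (y axis, log2 units) for the pericyte and smooth muscle genes and 7 marker lists, in each mouse (x axis); red bars are 18 months and blue bars 2 months. Neuron and oligodendrocyte lists vary most from mouse to mouse, and the epithelial list least.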

How the data were processed

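Intensities of 6 arrays, each 1 mouse, were deposited in 1 table (45101 probe sets). The authors made these intensities with RMA, per the submitters' processing notes (background correction, normalization between arrays and summary of probes; version not given in the sources used here). RNA was amplified before labelling, per the labels' protocols, which can distort dim transcripts. The deposited intensities ran from 2.47 to 26820.7. The notes do not give the scale in the sources used here; it was read as linear from this range, and log2 was taken. Probe sets were named by the platform annotation, and the probe set with the highest mean stood for a gene. Genes under the 40th percentile (4.92) were not tested. Ages were compared with limma 3.58.1 in R 4.3.3 without covariates, two-sided, adjusted over 12681 genes and, separately, over 27022 probe sets. This was tested on simulated data. The number of arrays limits precision. Mice of an age were separate animals.

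The members, 6 pathway lists and 8 marker lists were chosen with earlier results of these data known. Named were all members, the 3 genes of smallest p on each pathway list, the first gene of each marker list and the 5 genes most like the members' mean profile. Srf, Myh11, Myocd and Abcc9 were chosen after their values were seen. All genes of the contractile list under the filter were also named. Alternatives covered the filter, probe set choice, normalization, weights, trend, covariate, block and each mouse left out; leaving out both arrays at the ends of principal component 1 was added after seeing the data.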

Additional observations from a re-analysis of the deposited data

How the results depend on the processing

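Under all 16 alternatives 0 members passed the threshold. Over all genes 0 were called as reported, where limma gave 510 genes higher and 384 lower at an unadjusted p under 0.05. They were 3 higher and 1 lower with a 60th percentile filter, 5 higher with probe sets averaged, 4 and 1 with centring, 3 and 1 with array weights, 2 higher with a trend and 1 higher with the neuron covariate. These were H2-Aa, H2-Ab1, Gh, Spns2, Samd9l, Flvcr2 and, downward, Akr1b10. Leaving out each mouse gave 0 and 0. Of 27022 probe sets, 1 was called lower, with no gene symbol, and 1 after quantile normalization.

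The median of the members was -0.12, from -0.24 to 0.027 with a mouse left out, and -0.30 when 18-month replicate 3 and 2-month replicate 2, the extremes of component 1, were both dropped (chosen after seeing the data), of which the cause was not tested. Differences of Myl9, Acta2, Cspg4, Des and Notch3 kept their sign wherever they could be computed. Acta2 and Notch3 depended on 1 mouse each, as given above. Signs turned with a mouse left out for Tagln (-0.16 to 0.043), Rgs5 (-0.52 to 0.046) and Pdgfrb (-0.072 to 0.13, and -0.024 with both dropped), and the cause was not tested. Averaging a gene's probe sets put Acta2 and Des under the filter. A member had an unadjusted p under 0.05 in 5 of 16 alternatives.

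No clear pairing of the mice by replicate number was seen (correlations of deviations -0.015, 0.019, 0.17 for numbers 1, 2 and 3, with 3 of 6 arrays correlating best with their own number). Whether arrays of the same number shared a batch was not tested. With the replicate block limma called 0 genes. The numbers are balanced over the ages, so the block could change the spread but not the differences, and the median of the members was again -0.12. The small number of mice and the background level of Cnn1 and Kcnj8 limit what can be seen.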
